A study of Mus musculus with 16 samples.

Results

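Spi1 regions found only in KO-iMOS cells were the stretches of genome that carried a Spi1 CUT&Tag peak in all 4 KO-iMOS peak lists and in none of the 6 WT-iMOS lists. Peaks of the 10 Spi1 lists on chromosomes 1 to 19, X and Y were merged wherever they shared at least 1 bp. This gave 31443 regions, of which 533 met the rule, or 1.70% of all merged regions. These regions, here called KO-only, were chosen by the presence of a peak in the 10 lists. Their number, strength and width in these lists are therefore a description and are not tested. The opposite pattern, all 6 WT-iMOS and no KO-iMOS list, held for 338 regions (1.07%), and 1495 regions (4.75%), here called constant, had a peak in all 10 lists. A further 2970 regions had a peak in all 4 KO-iMOS lists and in 1 to 5 WT-iMOS lists, and are called partly shared.

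The libraries were made from bone marrow MPP3 cells of mice, multipotent progenitors isolated by sorting. Spi1 was profiled in KO-iMOS T1 (2 libraries), KO-iMOS T2 (2), WT-iMOS T1 (3) and WT-iMOS T2 (3), and Bcl11a in WT-iMOS T2 (3) and WT-iMOS T1 (3). The series text gives the function of Bcl11a in MPP3 cells as its subject. The labels name neither the gene deleted in KO-iMOS nor its driver, and they do not explain iMOS, T1, T2 or the 3m in the titles. They also do not say whether replicates came from separate animals, so p-values measure only the spread between these samples. No Bcl11a library from KO-iMOS cells was used here. Peak lists hold no expression level, so neither the deletion nor the MPP3 identity could be checked from them.

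The peak names inside the files carry a prefix that the labels do not explain. The KO-iMOS T1 lists begin with PWT, the KO-iMOS T2 lists with PKO, the WT-iMOS T1 lists with PWG for Spi1 and BWG for Bcl11a, and the WT-iMOS T2 lists with PMG and BMG. Groups were taken from the labels, and results are also given with T1 libraries alone and T2 libraries alone. The lists differed in length. The 4 KO-iMOS lists held 20241 and 13053 peaks (T1 replicates 1 and 2) and 14882 and 6372 peaks (T2 replicates 1 and 2), against 5068 to 12261 in the 6 WT-iMOS lists. The 6 Bcl11a lists held 2719 to 7382 peaks. Read counts were not used here, so the depth behind each list is unknown, and list length and genotype cannot be told apart in a region that is absent from a short list. With every Spi1 list shortened to its 4926 strongest peaks on these chromosomes, 200 regions met the rule. Only 47 of the 533 KO-only regions overlapped those 200, so which regions are KO-only depends on how deep into each list the calls reach.

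Spi1, also called PU.1, is an ETS transcription factor that binds purine-rich DNA around a GGAA core. It can bind its sites in closed chromatin and is required for the myeloid and lymphoid lineages. Bcl11a is a zinc finger repressor that recruits histone deacetylase complexes, is needed for B cells and is best known for silencing fetal globin genes. MPP3 cells are progenitors biased towards granulocytes and macrophages. In CUT&Tag an antibody brings a transposase to the factor, and the DNA nearby is cut and tagged, so open promoters can yield signal along with bound sites.

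Of the KO-only regions 188 had their summit within 1 kb of a transcription start site (TSS). The promoter sequences of 6 of them are given, beside 2 promoters from constant regions. Each sequence below runs from 250 bases before the TSS to 50 after it on the gene's strand, from RefSeq promoter records on GRCm38.p6, the same assembly as mm10. Capitals mark GGAAGT, the core of many ETS sites, or TGACCA, a short sequence bound by Bcl11a, on either strand. Slbp (chr5:33652525-33652824, minus strand) and Stard7 (chr2:127269979-127270278, plus strand) are shown because their KO-only regions had a Bcl11a peak in all 6 libraries. Hdac4 (chr1:92180292-92180591, minus strand) and Deaf1 (chr7:141327676-141327975, minus strand) held the KO-only promoter regions with the highest Spi1 percentiles. Swsap1 (chr9:21955503-21955802, plus strand) and Lrrc28 (chr7:67645187-67645486, minus strand) are 2 of the 4 KO-only windows with the longer ETS site GAGGAAGT. Mfsd11 (chr11:116853512-116853811, plus strand) and Rgs19 (chr2:181693761-181694060, minus strand) are shown for contrast, from the constant promoter regions with the highest percentiles.
Slbp: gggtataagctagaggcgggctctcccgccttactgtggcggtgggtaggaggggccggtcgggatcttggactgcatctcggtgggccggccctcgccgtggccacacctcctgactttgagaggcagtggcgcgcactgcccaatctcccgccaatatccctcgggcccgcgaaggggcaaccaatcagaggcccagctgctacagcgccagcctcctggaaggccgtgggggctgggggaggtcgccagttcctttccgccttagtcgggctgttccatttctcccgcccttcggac
Stard7: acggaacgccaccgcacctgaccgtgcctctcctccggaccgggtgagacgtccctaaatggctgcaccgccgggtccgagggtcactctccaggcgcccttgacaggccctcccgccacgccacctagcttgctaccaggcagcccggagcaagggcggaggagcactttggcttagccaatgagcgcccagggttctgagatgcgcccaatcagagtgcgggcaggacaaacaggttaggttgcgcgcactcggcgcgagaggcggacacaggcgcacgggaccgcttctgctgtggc
Hdac4: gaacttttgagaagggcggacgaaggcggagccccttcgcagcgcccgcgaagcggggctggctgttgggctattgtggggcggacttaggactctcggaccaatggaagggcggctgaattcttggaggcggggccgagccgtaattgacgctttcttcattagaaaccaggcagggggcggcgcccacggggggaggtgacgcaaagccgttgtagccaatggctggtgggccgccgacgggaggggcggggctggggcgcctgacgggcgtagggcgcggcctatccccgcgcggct
Deaf1: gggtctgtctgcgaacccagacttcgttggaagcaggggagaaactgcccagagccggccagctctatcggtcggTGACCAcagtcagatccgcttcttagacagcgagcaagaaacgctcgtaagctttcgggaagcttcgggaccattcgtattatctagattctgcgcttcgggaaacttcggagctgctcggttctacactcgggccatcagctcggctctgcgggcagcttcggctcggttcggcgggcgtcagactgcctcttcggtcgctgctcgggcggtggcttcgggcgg
Swsap1: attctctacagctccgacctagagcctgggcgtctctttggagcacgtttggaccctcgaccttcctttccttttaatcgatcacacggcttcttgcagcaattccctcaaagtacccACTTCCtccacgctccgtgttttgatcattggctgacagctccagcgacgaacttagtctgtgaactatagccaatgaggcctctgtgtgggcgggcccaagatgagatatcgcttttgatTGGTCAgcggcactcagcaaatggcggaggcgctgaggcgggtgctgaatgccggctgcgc
Lrrc28: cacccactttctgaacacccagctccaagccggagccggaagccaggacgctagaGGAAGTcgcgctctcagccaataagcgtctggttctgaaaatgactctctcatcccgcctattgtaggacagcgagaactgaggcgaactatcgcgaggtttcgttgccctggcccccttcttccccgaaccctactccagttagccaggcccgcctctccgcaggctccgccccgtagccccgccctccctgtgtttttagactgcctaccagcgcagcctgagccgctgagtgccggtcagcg
Mfsd11: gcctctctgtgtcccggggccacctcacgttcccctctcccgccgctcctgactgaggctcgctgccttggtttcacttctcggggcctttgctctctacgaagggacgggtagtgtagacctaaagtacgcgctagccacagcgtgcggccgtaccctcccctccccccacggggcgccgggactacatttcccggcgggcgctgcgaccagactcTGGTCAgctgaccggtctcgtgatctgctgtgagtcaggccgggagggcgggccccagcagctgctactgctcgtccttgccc
Rgs19: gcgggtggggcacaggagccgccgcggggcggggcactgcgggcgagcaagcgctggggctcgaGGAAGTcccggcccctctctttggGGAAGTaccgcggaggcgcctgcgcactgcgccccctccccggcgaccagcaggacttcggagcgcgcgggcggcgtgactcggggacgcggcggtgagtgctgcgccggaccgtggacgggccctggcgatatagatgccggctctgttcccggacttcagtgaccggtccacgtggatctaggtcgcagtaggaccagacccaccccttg

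The printed windows need not hold the Spi1 summit. The mean summit lay outside the window at Slbp and Swsap1, 127 and 184 bp downstream of the TSS. It also lay outside at Hdac4 and Mfsd11, 388 and 291 bp upstream. Within the windows, Slbp, Stard7 and Hdac4 held neither marked sequence, and Deaf1 held 1 copy of TGACCA. Swsap1 held 1 copy of each, on the reverse strand, with the ETS site starting 132 bases before the TSS. The Lrrc28 site started 197 bases before the TSS. Of the constant examples, Mfsd11 held no GGAAGT and 1 TGACCA, and Rgs19 held 2 GGAAGT cores, of which 1 lay inside a GAGGAAGT that started 188 bases before the TSS.

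KO-only regions held middle ranks in the KO-iMOS lists. The deposited −log10 p of each peak (column 8) and its fold enrichment (column 7) are the authors' values and were used only to rank peaks within their own list, as a percentile with 100 for the top peak. The median percentile of −log10 p over the 533 regions was 61.8 and 44.3 in KO-iMOS T1 replicates 1 and 2, and 58.9 and 35.4 in T2 replicates 1 and 2. Partly shared regions had medians of 80.9, 69.2, 75.4 and 51.6 in the same 4 lists, and constant regions 95.2, 92.1, 92.3 and 82.0. The KO-only median was the lowest of the 3 sets in every list. By fold enrichment the KO-only medians were slightly higher, at 65.1 and 49.4 in T1 and 62.7 and 41.5 in T2.

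**Figure D1:**
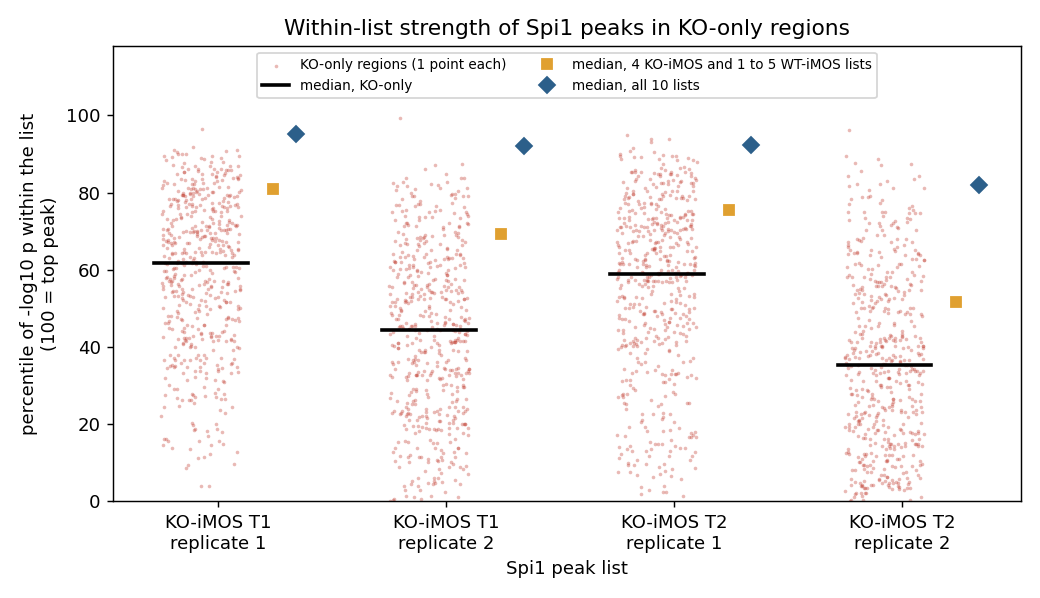
Percentile of −log10 p within each KO-iMOS Spi1 list (y axis, 100 is the top peak) for the 533 KO-only regions (points, with their median as a bar), beside the medians of partly shared regions (squares) and constant regions (diamonds). KO-only points span nearly the whole scale in each list, and their medians of 35.4 to 61.8 lie below those of both other sets.

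Few KO-only regions were strong in every KO-iMOS list. Above the 50th percentile in all 4 lists were 68 regions, above the 75th 6, and above the 90th 0, while 69 were at or below the 50th percentile in all 4. At or below the 25th percentile were 34 of their peaks in KO-iMOS T1 replicate 1 but 191 in T2 replicate 2, whose list was the shortest of the 4. The rank of a KO-only region among its list's peaks had a median of 7741, 7268, 6110 and 4119 in the 4 lists. The shortest WT-iMOS list held 5068 peaks, and between 128 and 376 of the KO-only regions ranked within that length in a given KO-iMOS list. Just outside the rule, 649 regions had all 4 KO-iMOS lists and 1 WT-iMOS list. Their mean percentile had a median of 55.8, against 49.2 for KO-only regions, and for 466 of them the lone WT-iMOS peak was in T2 replicate 1. Another 1822 regions had 3 KO-iMOS lists and no WT-iMOS list, with a median of 37.6, and 1405 of these lacked a peak in KO-iMOS T2 replicate 2.

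KO-only regions were also narrower than constant ones. The merged regions had a median width of 710 bp (370 to 1455), against 904 bp for constant regions and 491 bp for all merged regions. Single peaks inside them had median widths of 589, 439, 507 and 437 bp in the 4 KO-iMOS lists, against 803, 705, 735 and 634 bp in constant regions. The 4 summits of a KO-only region spread over a median of 192 bp, and in 97 regions over at most 100 bp. The widest were at the histone gene H2ac13 (1455 bp), at Lipa (1451 bp), which encodes lysosomal acid lipase, and at Mindy2 (1349 bp), a deubiquitinase gene. All of these were promoters with a Bcl11a peak in 2 libraries. At Lipa the 4 summits spread over 1104 bp, so the region joins peaks that lie apart.

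The strongest KO-only regions lay mostly away from promoters. The highest mean percentile, 93.8, belonged to a region on chromosome Y (chrY:260931-261602), 147308 bp from the nearest protein-coding gene. Its 4 values were 96.4, 99.4, 94.8 and 84.4, given here and below in the order KO-iMOS T1 replicates 1 and 2, then T2 replicates 1 and 2. Every one of the 16 lists had chromosome Y peaks, between 4 and 16 of them, and the nearest WT-iMOS Spi1 peak was 2348459 bp away. Next came a region inside Arhgap35 (chr7:16570891-16571595), a gene for a GTPase-activating protein, at 83.9, 81.0, 89.9 and 96.3. A region inside Fblim1 (chr4:141586949-141587816), which encodes a filamin-binding adaptor of cell adhesions, stood at 87.2, 76.3, 88.7 and 88.8. These were high in all 4 lists.

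The other leading regions lay more than 1 kb from any TSS on record and had nearest genes of varied function. A region 58327 bp from Ptger4, the prostaglandin E2 receptor EP4, had percentiles of 91.0, 75, 85.8 and 87.2. One 15400 bp from Hgf, the ligand of the Met receptor, had 86.9, 82.6, 77.3 and 87.6, and one 18780 bp from Ptk2, the focal adhesion kinase, had 82.3, 83.8, 89.2 and 69.0. Aftph (clathrin-mediated trafficking), Lypd6, Adamts20 (an extracellular protease) and Tnfaip2 (a gene induced by tumour necrosis factor) followed, with mean percentiles of 80.2 to 81.1. None of these 7 carried a Bcl11a peak. By fold enrichment the Tnfaip2 region ranked lower, at 27.9, 32.0, 67.5 and 52.1. A Spi1 peak of 4 WT-iMOS libraries lay within 10 kb of it, the nearest 3347 bp away. The nearest gene is a label of position, and whether a region acts on it was not tested.

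Hdac4 and Deaf1 held the strongest promoter regions, and both carried Bcl11a. Hdac4 encodes a class IIa histone deacetylase. Its region (chr1:92180267-92180923) had its mean summit 388 bp upstream of a TSS inside the annotated gene, 14973 bp from the gene's boundary, and percentiles of 90.1, 79.2, 78.4 and 87.5. A Bcl11a peak was present there in WT-iMOS T2 replicate 2 and in all 3 T1 libraries. Deaf1 encodes a transcription factor that binds TTCG-rich DNA. Its region (chr7:141327529-141328139) had a summit 128 bp upstream of the TSS, percentiles of 88.8, 58.5, 89.5 and 82.3, and Bcl11a in 3 libraries. KO-iMOS T1 replicate 2 was the low value of the 4. At the other end, regions at Dbnl (mean percentile 9.87), Chm (9.93), Pcif1 (13.7) and Ccng2 (14.3) lay near the foot of every list that called them. These genes encode an actin-binding adaptor, a Rab escort protein, an mRNA cap methyltransferase and cyclin G2, and 3 of the 4 summits were within 1 kb of a TSS.

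KO-only regions lay at promoters more often than Spi1 regions in general, at a share close to other regions called in all KO-iMOS lists. Of the 533, 196 (36.8%, exact binomial 95% interval 32.7 to 41.0) had their mean summit within 1 kb of the boundary of a protein-coding gene. The share was 34.6% of partly shared, 31.6% of constant and 24.3% of all merged regions. WT-only regions differed from all of these, at 1.48%. Measured to a TSS, which excludes chromosome 18 because its promoter records were not used here, 188 of 515 regions (36.5%) were within 1 kb, against 31.6% of constant and 24.2% of all merged regions. Promoter records covered 17491 of the 21883 protein-coding genes, so a region at a gene start without a record can count as distal. Neighbouring regions are not independent, so the interval covers counting error only. With T1 libraries alone the boundary share was 33.1% and with T2 libraries alone 37.3%.

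**Figure D2:**
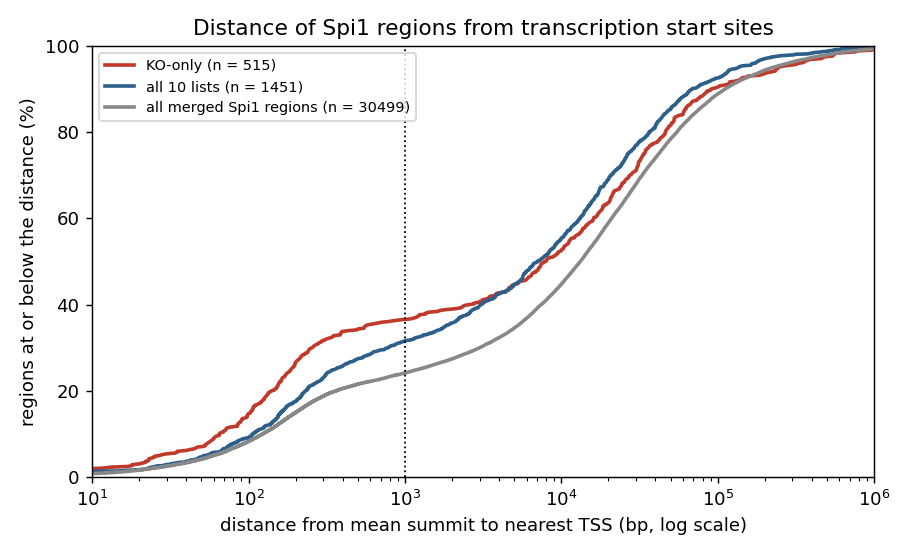
Cumulative share of regions (y axis, %) by distance from the mean summit to the nearest TSS (x axis, bp, log scale) for KO-only regions, constant regions and all merged Spi1 regions, with 1 kb marked by a dotted line. The KO-only curve runs above both others up to 1 kb, where it reaches 36.5%, against 31.6% for constant and 24.2% for all regions.

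Promoter KO-only regions were lower in within-list strength than distal ones in each of the 4 KO-iMOS lists. Their median percentiles were 56.9, 40.9, 54.9 and 32.9, against 64.3, 45.7, 61.0 and 36.7 for distal regions. The 188 promoter regions had a median mean percentile of 44.0 and a median width of 756 bp, against 51.1 and 687 bp for the 327 others. Of the promoter summits 86 lay upstream of the TSS and 102 at or downstream of it, and 154 were within 250 bp. Of the 327 distal regions 164 were inside a gene and 163 outside, and 95 were more than 50 kb from any TSS on record. Missing promoter records enter these counts. A region 171 bp from the boundary of Hspa13, for example, was 107749 bp from the nearest TSS on record. The nearest WT-iMOS peak was a median of 30557 bp away (211 to 2348459), and 411 KO-only regions had no WT-iMOS peak within 10 kb. The rule excluded any overlap with a WT-iMOS peak, so this distance follows in part from the choice. It was not measured for other sets of regions, so whether it is particular to KO-only regions was not tested.

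GAGGAAGT was the sequence with the largest fold difference between KO-only and constant promoters among those searched. For each region the promoter window with the TSS nearest its summit was searched on both strands, which gave 180 KO-only, 1005 partly shared and 443 constant windows. A window reaches only 50 bases past the TSS, and 102 of the 188 KO-only promoter summits lay at or downstream of it. The shares therefore describe the window, which can miss the summit. GAGGAAGT, close to the preferred site of PU.1, was present in 4 KO-only windows (2.22%, 95% interval 0.609 to 5.59), in 6.47% of partly shared windows and in 61 constant windows (13.8%, 10.7 to 17.3). All 32851 promoter windows held it in 3.20% of cases. The KO-only share is thus near the share of promoters in general. GGAAGT, which lies inside GAGGAAGT, was in 25% of KO-only, 37.3% of partly shared, 50.1% of constant and 23.8% of all windows. CCGGAAGT, a form favoured by ETS factors such as GABP that also contains GGAAGT, was in 5.56% of KO-only, 8.86% of partly shared, 10.4% of constant and 3.89% of all windows. TGACCA showed no such order, with 13.9%, 10.8%, 14.2% and 13.6% in those 4 sets.

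Motifs of general promoters were as common in KO-only as in the other called windows. The GC box GGGCGG was in 74.4% of KO-only, 68.2% of partly shared and 65.9% of constant windows, against 35.7% of all windows. CCAAT was in 52.2%, 45.3% and 42.2%, against 37.4% of all windows. The palindromic NRF1 site was in 2.78% of KO-only, 2.19% of partly shared, 1.35% of constant and 0.971% of all windows. YY1 sites (AAGATGGC) were in 6.11%, 4.68%, 2.93% and 2.75% of those sets, and the cAMP response element TGACGTCA in 3.89%, 3.68%, 2.48% and 1.79%. These sites are known from promoters of widely expressed genes, and the KO-only share was the highest of the 4 sets for each, on counts of 5, 11 and 7 KO-only windows. The E-box CACGTG was in 9.44%, 9.15%, 9.93% and 7.15%. Sites of blood factors were no more frequent than in promoters at large. The RUNX site TGTGGT was in 13.3%, 11.6%, 12.6% and 16.8%, the GATA site GATAAG in 3.33%, 4.18%, 6.09% and 7.44%, and the AP-1 site TGANTCA in 6.11%, 4.28%, 4.06% and 7.81%. The median GC content of the KO-only windows was 62.0%, against 60.3% in constant and 52.7% in all windows. A match of letters is a description of the window and not evidence of a bound site. Among regions of like strength the KO-only share of GAGGAAGT was again the lower one, but it rested on 2 windows and the intervals overlapped. These regions had mean percentiles between 36.6 and 58.6, the middle of the KO-only range. GAGGAAGT was in 2 of 94 KO-only windows (2.13%, 95% interval 0.259 to 7.48). It was in 24 of 345 windows (6.96%, 4.51 to 10.2) of regions called in all 4 KO-iMOS and at least 1 WT-iMOS list. The shorter GGAAGT was in 20 of the same 94 windows (21.3%, 13.5 to 30.9) and in 136 of the 345 (39.4%, 34.2 to 44.8). Neither difference was tested. The intervals count each window as independent and cover counting error only. The compared regions were also chosen by a WT-iMOS Spi1 peak, so the comparison is not independent of the choice. With T1 libraries alone GAGGAAGT was in 3.09% of KO-only and 12.4% of constant windows, and with T2 libraries alone in 2.88% and 14.1%. With lists of equal length 0 of 50 KO-only and 50 of 346 constant windows held it.

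Among regions called in all 4 KO-iMOS lists, the ETS site and Bcl11a were more frequent the more WT-iMOS lists had a peak, while promoter position showed no such order. GAGGAAGT was in 2.22% of windows with 0 WT-iMOS lists, 3.79% with 1, 4.24% with 2, 7.54% with 3, 7.39% with 4, 8.81% with 5 and 13.8% with 6. The share of regions with a Bcl11a peak in at least 1 library over the same steps was 22.3%, 29.4%, 32.4%, 42.1%, 50.2%, 52.0% and 66.2%. The share within 1 kb of a TSS stayed between 31.4% and 39.4%. Mean KO-iMOS percentiles moved with these steps too, with medians of 49.2 at 0 lists and 89.1 at 6.

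**Figure D3:**
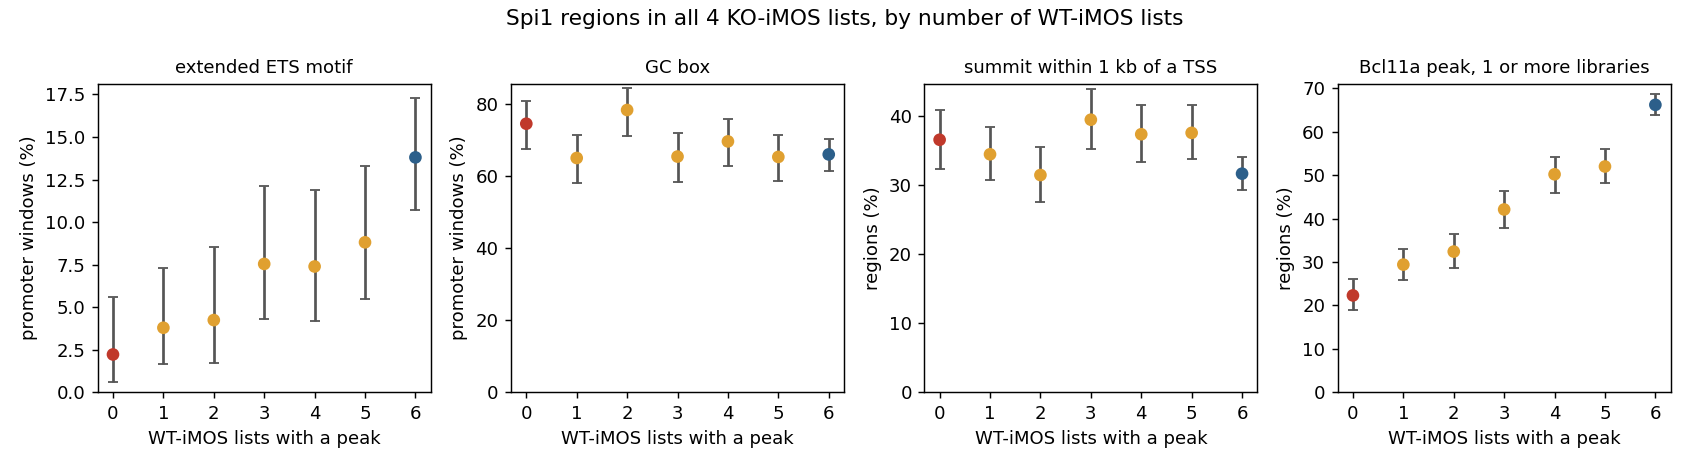
Spi1 regions with a peak in all 4 KO-iMOS lists, by the number of WT-iMOS lists with a peak (x axis; 0 is KO-only, 6 is constant). From left to right the y axes give the percent of promoter windows with the extended ETS site, the percent with a GC box, the percent of regions within 1 kb of a TSS, and the percent with a Bcl11a peak in at least 1 library, and bars are exact 95% binomial intervals. The ETS site climbs to 13.8% and Bcl11a to 66.2% at 6 lists, whereas GC box and TSS shares show no steady order.

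Bcl11a peaks of WT-iMOS cells were uncommon in KO-only regions. These lists were not used by the rule, and shares were compared over libraries. The rule did require that KO-only regions lack a WT-iMOS Spi1 peak, while constant regions have one in all 6 lists. Bcl11a was also profiled in WT-iMOS cells, so the comparison is not independent of the choice of regions. At least 1 of the 6 Bcl11a libraries had a peak in 119 KO-only regions (22.3%), against 66.2% of constant and 31.3% of all merged Spi1 regions. At least 2 libraries had one in 63 (11.8%; 19.1% of all regions), and all 6 in 3 (0.563%; 2.76% of all regions). By library, 2.06%, 3.94% and 4.69% of KO-only regions had a Bcl11a peak in T2 replicates 1, 2 and 3, and 4.50%, 12.4% and 17.1% in T1 replicates 1, 2 and 3. In constant regions the shares were 21.2%, 23.7% and 24.5% in T2 and 30.7%, 52.0% and 58.3% in T1. All merged regions had 11.4%, 7.52%, 8.91%, 11.5%, 16.7% and 20.4% in the same order. Each library was lower in KO-only than in constant regions and in all merged regions.

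The mean share was 7.44% ± 5.91 in KO-only and 35.1% ± 16.0 in constant regions (SD, n = 6 libraries), a difference of −27.6 percentage points, lower in 6 of 6 libraries. The exact two-sided sign-flip permutation test gave p = 0.0312, the smallest 6 libraries allow, and 0.0547 after Benjamini-Hochberg adjustment over 7 tests, which misses 0.05. Against partly shared regions the difference was −9.68 points. Within the same range of KO-iMOS percentiles, set against regions called in at least 1 WT-iMOS list, it was −10.6 points. T1 Spi1 libraries alone gave −25.8 and T2 alone −24.0 points. Spi1 peaks of WT-iMOS cells were absent from KO-only regions by choice, and Bcl11a was profiled only in WT-iMOS cells. Genotype and library set therefore cannot be told apart here. In WT-only Spi1 regions, 72.2% to 93.8% had a Bcl11a peak in a given library.

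**Figure D4:**
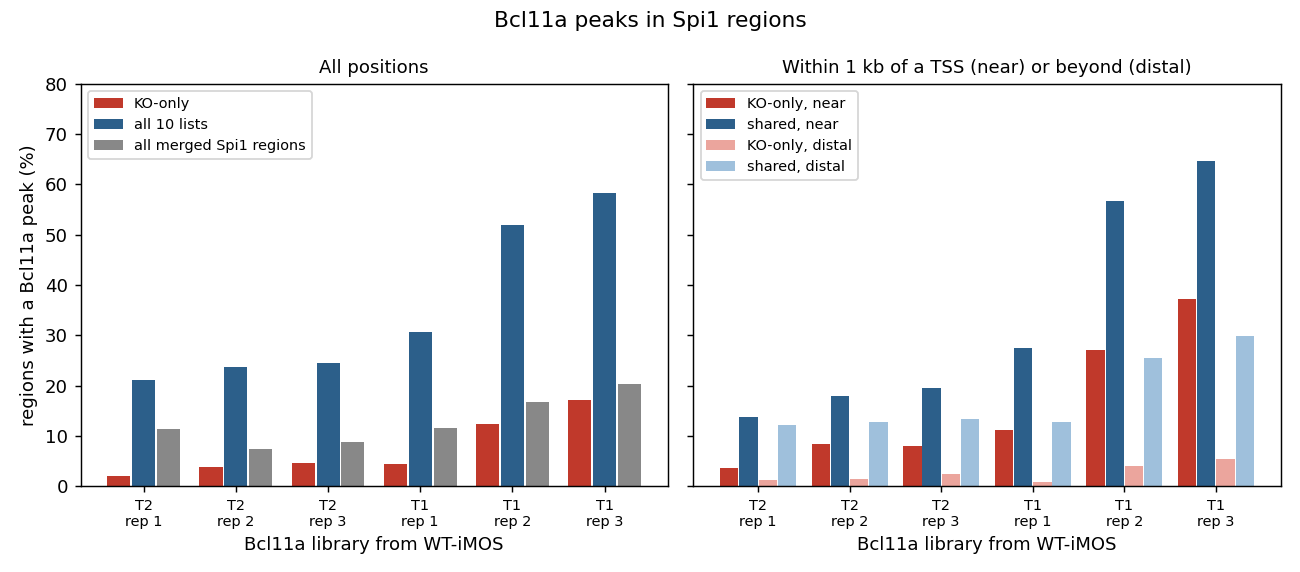
Percent of Spi1 regions with a Bcl11a peak (y axis) in each of the 6 WT-iMOS Bcl11a libraries (x axis), for KO-only, constant and all merged regions (left) and for KO-only regions and regions shared with at least 1 WT-iMOS list, within 1 kb of a TSS and beyond (right). KO-only bars are below those of constant regions in all 6 libraries, and the distal KO-only bars are the lowest, at 0.917% to 5.50%.

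Where Bcl11a did coincide with KO-only regions, it was mostly at promoters. Of the 188 KO-only regions within 1 kb of a TSS 88 (46.8%) had a Bcl11a peak in at least 1 library, against 27 of the 327 distal ones (8.26%). The mean share per library was 16.0% ± 13.2 near a TSS and 2.60% ± 1.80 beyond (SD, n = 6), a difference of 13.4 points, higher in 6 of 6 libraries (exact two-sided sign-flip permutation p = 0.0312, adjusted 0.0547). This test was added after the data were seen, and the difference shrank to 5.58 points with Bcl11a lists of equal length. Distal KO-only regions were lower than distal regions shared with WT-iMOS, at 17.7% ± 7.84, by 15.1 points in 6 of 6 libraries. Promoter KO-only regions were lower than shared promoters, at 33.3% ± 21.8, by 17.4 points in 6 of 6 libraries. Set beside all merged Spi1 regions near a TSS, a comparison with no test here, the shares were close. KO-only promoters had 3.72%, 8.51% and 7.98% in T2 replicates 1, 2 and 3 and 11.2%, 27.1% and 37.2% in T1 replicates 1, 2 and 3. All regions near a TSS had 5.89%, 6.99% and 7.93% in T2 and 10.7%, 28.2% and 36.2% in T1, so KO-only promoters were higher in 4 of 6 libraries. The tests against shared distal regions and shared promoters gave the same exact permutation p of 0.0312 and adjusted 0.0547, and were also added after the data were seen. Shared regions were chosen by a WT-iMOS Spi1 peak, so these 2 tests are not independent of that choice.

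Slbp and Stard7 had Bcl11a in all 6 libraries. Slbp encodes the protein that binds the stem-loop of histone mRNA. Its region (chr5:33652128-33652982) had Spi1 percentiles of 62.0, 51.9, 48.0 and 62.7, and Bcl11a percentiles within their own lists of 9.02, 37.8 and 41.6 in T2 and 37.0, 85.9 and 89.8 in T1. Its summit lay 127 bp downstream of the TSS, and all 6 WT-iMOS Spi1 libraries had a peak elsewhere within 10 kb, the nearest 4652 bp away. Stard7 encodes a phosphatidylcholine carrier that serves mitochondria. Its region (chr2:127269860-127270796) had Spi1 percentiles of 61.8, 11.8, 58.0 and 18.5, high in replicate 1 and low in replicate 2 of both T1 and T2. Its Bcl11a percentiles were 27.4, 71.3 and 46.2 in T2 and 76.9, 85.2 and 88.4 in T1. No WT-iMOS Spi1 peak lay within 10 kb.

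The remaining region with 6 Bcl11a libraries (chr17:45752369-45753212) was distal, 18795 bp from 1600014C23Rik. It had low Spi1 percentiles of 36.5, 19.5, 32.9 and 17.3 and high Bcl11a percentiles of 64.4 to 86.0. Bcl11a was present in 5 libraries at the promoters of Shb (a signalling adaptor), Zfp146 (a zinc finger gene) and Stk32c with Lrrc27. It was present in 4 at Hdac4 and at Osbpl9, which encodes a lipid-binding protein.

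A difference between T2 and T1 Bcl11a libraries could not be shown in KO-only regions. The share was 3.56% ± 1.35 in T2 and 11.3% ± 6.35 in T1 (SD, n = 3 each), a difference of −7.75 points (exact two-sided permutation p = 0.2, adjusted 0.233, where the smallest possible is 0.1). With Bcl11a lists of equal length it was −0.876 points.

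To read the pattern in lists that did not choose the regions, the rule was applied to T2 or T1 lists alone. Regions with a peak in both KO-iMOS T2 lists and no WT-iMOS T2 list numbered 1246 of 21432. In the T1 lists they were called in 84.7% and 62.1% of cases in KO-iMOS replicates 1 and 2, against 15.5%, 6.18% and 2.01% in WT-iMOS replicates 1, 2 and 3. All regions of the T2 lists were called in 65.0% and 50.2% in KO-iMOS T1 and in 40.4%, 27.7% and 24.5% in WT-iMOS T1. The KO-iMOS and WT-iMOS values did not overlap, with a difference of 65.5 points (exact two-sided permutation p = 0.2, the smallest 2 against 3 libraries allow, adjusted 0.233).

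Chosen in T1 instead, 4953 of 27168 regions were called in 69.2% and 28% of cases in KO-iMOS T2, against 35.4%, 8.90% and 2.83% in WT-iMOS T2. All regions of the T1 lists were called in 46.4% and 22.0% in KO-iMOS T2 and in 39.3%, 22.5% and 16.2% in WT-iMOS T2. Here the groups overlapped, since WT-iMOS T2 replicate 1 called more of the regions than KO-iMOS T2 replicate 2. The difference was 32.9 points (exact two-sided permutation p = 0.4, adjusted 0.4), and between 12.3 and 53.5 when 1 library was left out. Chosen regions had a peak in 2 KO-iMOS lists, so a share above that of all regions in the other KO-iMOS lists follows in part from the choice. They also had no peak in the WT-iMOS lists of the choosing set. A share below that of all regions in the other WT-iMOS lists therefore follows in part from the choice too. Regions called in both KO-iMOS T1 lists, whatever the WT-iMOS calls, were found in 79.6% and 45.3% of cases in KO-iMOS T2, against 64.4%, 37.7% and 24.8% in WT-iMOS T2. Those called in both KO-iMOS T2 lists were found in 95.8% and 88.2% in KO-iMOS T1, against 64%, 49.4% and 39.2% in WT-iMOS T1. Regions that also lacked a WT-iMOS peak when chosen were thus found less often than these in every list of either genotype.

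**Figure D5:**
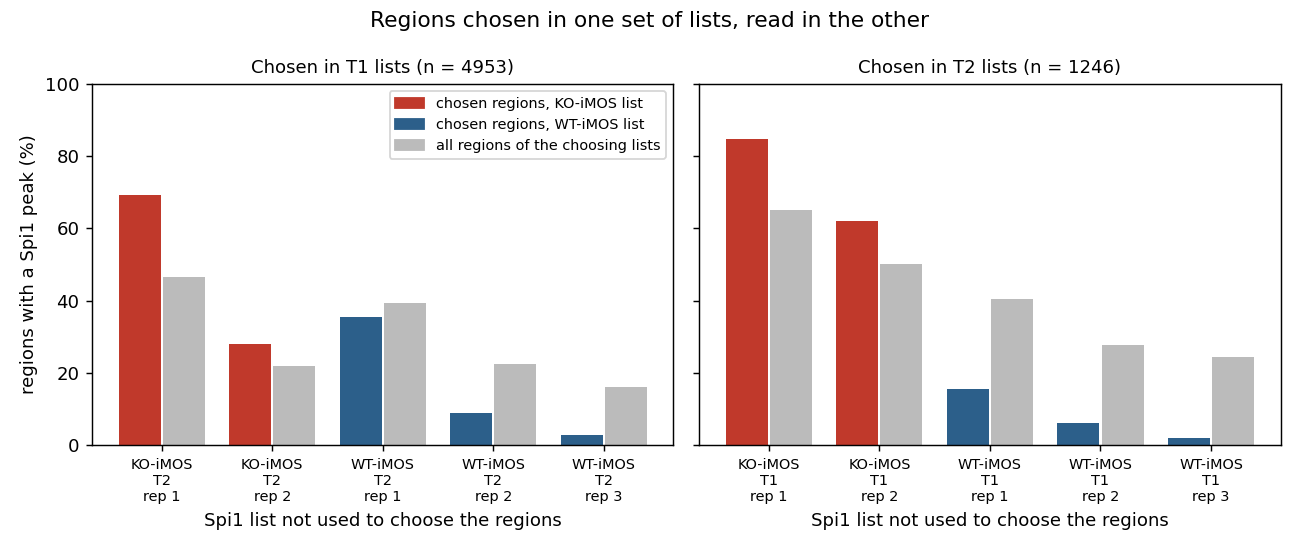
Percent of regions with a Spi1 peak (y axis) in lists that were not used to choose them (x axis), for regions chosen in the T1 lists (left) and in the T2 lists (right), beside all regions of the choosing lists in grey. Chosen regions stand above grey in the KO-iMOS lists and below it in the WT-iMOS lists. Both follow in part from the choice of regions with 2 KO-iMOS peaks and no WT-iMOS peak. For regions chosen in T2 the KO-iMOS values of 84.7% and 62.1% lie above all WT-iMOS values.

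Among 31 gene lists, which were chosen with earlier results of these data known, those of blood stem cell regulators and of genome maintenance had the highest share of genes near a KO-only region, on 3 genes each. Within 10 kb of a KO-only summit lay 565 of 21883 protein-coding genes (2.58%), against 6.86% for constant regions. Of the 565 genes 276 (48.8%) had no WT-iMOS Spi1 peak within 10 kb, against 55.3% of all genes, and 73 had one in all 6 WT-iMOS libraries.

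Blood stem cell regulators had KO-only regions at 3 of 30 listed genes (10%, against 2.58% of all genes): Prdm16, Mecom and Myb. Constant regions were at 6 (20%, against 6.86% of all genes). These counts are small and were not tested. A gene was counted if a summit lay inside it or within 10 kb, so long genes are counted more readily. The Prdm16 and Mecom summits lay inside the gene, 105783 and 153967 bp from the nearest gene boundary. Prdm16 and Mecom encode PR domain factors that maintain stem cells, and Myb a factor that sustains progenitors. The Prdm16 region (chr4:154531122-154531941), inside the gene, had percentiles of 75.6, 61.9, 84.2 and 82.3. The Mecom region (chr3:30104732-30105514), inside the gene and 92059 bp from the nearest TSS, had 80.8, 53.7, 80.2 and 78.8. The Myb region (chr10:21151113-21151589) had 60.4, 63.6, 73.2 and 36.7. All 3 were distal and without Bcl11a. Their mean percentiles of 76.0, 73.4 and 58.5 were above the KO-only median of 49.2. In KO-iMOS T1 replicate 1 the Myb region, at 60.4, was below the KO-only median of 61.8. WT-iMOS cells had a Spi1 peak elsewhere within 10 kb of Prdm16 in 6 libraries, of Mecom in 4 and of Myb in 1.

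Lists of mature blood lineages had 0 or 1 gene near a KO-only region, which is about what the background of 2.58% gives for lists of this size and is not a result about them. Of 37 granulocyte and monocyte genes 0 had a KO-only region within 10 kb and 8 had a constant one. The counts were 0 and 8 for 31 interferon and inflammation genes, 0 and 3 for 30 lymphoid genes, and 0 and 4 for 24 apoptosis genes. For mast cell, basophil and eosinophil genes they were 0 and 0 of 16. Single genes came from other lineages. These were Epor, the erythropoietin receptor (1 of 29 erythroid genes), Itgb3, the platelet integrin beta 3 (1 of 22 megakaryocyte genes), and Zbtb46, a dendritic cell factor (1 of 20). The Epor and Zbtb46 entries came from promoters of neighbours, Swsap1 and Zgpat, and Itgb3 had a region inside the gene at 67.4, 71.0, 41.1 and 30.9. Genes of non-haematopoietic tissues had 0 KO-only and 1 constant of 32.

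Genome maintenance genes had 3 of 30 (10%, against 2.58% of all genes), and 2 with a constant region (6.67%, against 6.86% of all genes). Among the 3, Fanca, of the Fanconi pathway that repairs DNA crosslinks, had a promoter region (chr8:123318084-123318678) at 27.5, 32.7, 61.4 and 13.5. Fancd2, of the same pathway, was counted through the promoter of Brk1, 7843 bp away. No WT-iMOS Spi1 peak lay within 10 kb of Fanca or Fancd2. Cell cycle genes had 1 of 43 (Rbl2, a retinoblastoma relative) and chromatin modifier genes 1 of 40 (Rcor1, a corepressor), against 3 and 9 with constant regions.

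The transcription machinery had 5 of 105 genes of the polymerase and Mediator list (4.76%, against 2.58% of all genes). Constant regions were also near 5 (4.76%, against 6.86% of all genes). These counts are small and were not tested. Polr2i, a subunit of RNA polymerase II, and Gtf2e1, of the initiation factor TFIIE, had promoter regions with mean percentiles of 22.7 and 29.1. Med12l and Med13l had regions inside the gene at 61.8 and 53.9, the first at the start of P2ry13, a receptor for ADP. Translation factors had 4 of 71 (5.63%) and 3 with a constant region (4.23%), with the promoter of Eif3b at 61.5, 49.5, 46.3 and 17.2. The other translation factors were counted through regions nearest to other genes. Eif2ak1 lay 6964 bp from a summit at the Aimp2 promoter, and Eif2a 8827 bp from one nearest to Serp1. The summit inside Eif4enif1 was 52 bp from the start of Gm51877. tRNA synthetases had 2 of 34 (2 constant) and mitochondrial ribosome genes 2 of 78 (6 constant). Cytosolic ribosome genes had 1 of 84, against 9 with a constant region. Splicing genes had 1 of 107 against 13, RNA helicases 1 of 53 against 4, and proteasome genes 0 of 51 against 7.

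Respiratory chain genes had 3 of 96 (3.12%, against 2.58% of all genes), and 6 with a constant region (6.25%, against 6.86% of all genes). Both shares are near the background and are not a result about these genes. Among the 3, Ndufb9 was counted only through a region nearest to Tatdn1, with its summit 5850 bp from Ndufb9. Atp5g1, for the membrane ring of ATP synthase, had a promoter region (chr11:96075453-96076069) at 75.3, 81.1, 31.2 and 58.2, with Bcl11a in 3 libraries. Ndufb6, a complex I subunit, had one at 44.6, 4.56, 32.6 and 20. The glycolytic gene Eno1 (1 of 24 housekeeping genes) had a promoter region at 61.8, 61.3, 41.6 and 7.64, also with Bcl11a in 3 libraries. The highest and lowest of the 4 lists differed by 40 points or more at each of Atp5g1, Ndufb6 and Eno1.

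Among membrane transport genes 9 of 375 solute carriers (2.40%) had a KO-only region, against 37 with a constant one. Picked out after their values were seen, 4 of the 9 were zinc transporters: Slc39a8, Slc30a1, Slc30a7 and Slc39a7. All 4 regions were within 1 kb of a TSS, but for Slc39a7 the nearest gene and TSS were those of a neighbour, H2-Ke6. The family has 24 members, so 16.7% had a KO-only region, against 2.58% of all genes. Constant regions were near 5 others, and partly shared regions near 3 members. These counts are small and were not tested. WT-iMOS cells had a Spi1 peak within 10 kb of Slc39a7 in 6 libraries, of Slc30a1 in 2, of Slc30a7 in 1 and of Slc39a8 in 0. The Slc39a8 region (chr3:135825282-135826529) had percentiles of 80.9, 68.5, 57.4 and 50 and a summit 9 bp from the TSS. The Slc30a1 region (chr1:191906182-191906987) had 81.2, 78.5, 70.7 and 5.46, and Bcl11a in 3 libraries. Small GTPases had 5 of 102 (14 constant), among them Rab28 and Arl4d at their own promoters, with means of 50.9 and 57.4. Zinc finger genes had 12 of 465 (2.58%, the same as all genes), against 37 constant. KLF and SP genes had 0 of 26, ubiquitin enzymes 0 of 101, MAP kinase genes 1 of 73 (Map4k2) and Hox genes 0 of 39, against 3, 6, 12 and 0 with constant regions.

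Histone genes had 7 of 100, with 0 constant, but through only 2 regions of the cluster on chromosome 13. The wider one (chr13:21716332-21717786) covered the start of H2ac13, close to H2bc13, H3c10 and H2bc14, with percentiles of 37.1, 18.7, 8.31 and 32.7 and Bcl11a in 2 libraries. The other (chr13:21819581-21820308) lay 7686 bp from H4c17 at 11.4, 3.96, 48.7 and 9.49. Both were weak in most lists, and the genes share the regions, so the 7 are not independent.

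Several genes had a pair of KO-only regions nearest to them: Sfi1, Spred2, Enc1, Mtmr14, Ghitm, Rasgef1b, Snx18, Zfp174, Ndufaf6 and Bfsp2. At Mtmr14, a phosphoinositide phosphatase gene, 1 region lay at the promoter (35.1, 41.8, 50.1 and 35.2) and another 8009 bp into the gene (83.4, 44.3, 85.9 and 36.5). The Enc1 pair lay 111007 and 120102 bp from the gene, with mean percentiles of 65.9 and 60.0. Spred2 encodes an inhibitor of Ras signalling. Its intronic or exonic position was not resolved for the region inside the gene, at 16.2, while the other lay 368807 bp away at 73.1.

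A few further regions are given as examples by their nearest gene, picked after their values were seen. The region nearest to Kit, the stem cell factor receptor, lay 87868 bp from the gene (chr5:75744263-75744896) with percentiles of 87.6, 41.2, 74.5 and 34.7. The region nearest to Myc lay 444314 bp from it (chr15:61540577-61541272) at 81.3, 44.2, 75.1 and 71.2. Xbp1, a factor of the unfolded protein response, had one 8184 bp upstream (chr11:5512228-5512802) at 85.9, 61.7, 86.3 and 52.0. KO-iMOS T1 replicate 1 and T2 replicate 1, the longer list of each pair, gave the higher value in each of these. These 3 had no Bcl11a peak. The region nearest to Ccne1, which encodes cyclin E1, lay 13025 bp from it with percentiles of 42.9, 57.5, 46.1 and 19.9, and had Bcl11a in 1 library.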

How the data were processed

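The CUT&Tag kit was a commercial one, as the labels' protocols state, and the authors deposited 1 narrowPeak list for each library, with peaks called separately. The submitters' processing notes name Bowtie2, SAMtools, MACS2 and the build mm10; versions, settings and any control sample are not given in the sources used here. A deposited line holds a peak's position, a score, a fold enrichment (a ratio over local background), the p-value and q-value as −log10, and a summit offset, all as the authors gave them. Every deposited −log10 q was above 2. A longer list can hold weaker peaks, so presence in a list depends on its length and unknown depth.

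Samples were grouped by the target in the title and the genotype label; all 16 were used. The members and gene lists were chosen with earlier results of these data known. Spi1 peaks were merged at 1 bp overlap, and the position of a region is the mean of its KO-iMOS summits. Distances used RefSeq protein-coding genes and promoter records of GRCm38.p6; promoter records of chromosome 18 were not used here, and exons, introns and UTRs were not resolved. Bcl11a shares were compared over libraries by exact sign-flip or label permutation, two-sided, with Benjamini-Hochberg adjustment over 7 tests; 95% intervals are exact Clopper-Pearson and cover counting error only. Named regions were the 12 highest and 4 lowest by mean percentile, the 8 with most Bcl11a libraries, up to 4 genes of each of 31 lists, genes with at least 2 regions, and the 3 widest; exceptions are named as such. The region at 1 gene of the genome maintenance list is not reported here. Alternatives covered list length, peak threshold, merging, overlap, distance, and each library left out. Merging and selection were tested on simulated data. The work used Python 3.11.15 with pandas 2.3.3, scipy 1.17.1, numpy 2.4.6, and matplotlib 3.10.9 for figures.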

Additional observations from a re-analysis of the deposited data

How the results depend on the processing

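The number of KO-only regions depended most on the choice of lists. It was 200 with Spi1 lists of equal length, 4953 with T1 libraries alone and 1246 with T2 libraries alone, and 537 to 1937 with each Spi1 library left out in turn. The largest counts came without KO-iMOS T2 replicate 2 (1937), without WT-iMOS T2 replicate 1 (999) and without KO-iMOS T1 replicate 2 (824). The cause was not tested beyond list length. A −log10 q of at least 5, merging within 500 bp, 50% coverage and 200 bp around summits gave 427, 530, 713 and 439. The share near a gene boundary was 31.0% with lists of equal length, 41.8% at 3 kb, and 32.4% to 42.6% with a Spi1 library left out.

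The Bcl11a difference from constant regions kept its direction under every alternative run, at −30.4 to −24.9 points with any 1 library left out and −29.3 to −24.9 with a Bcl11a library left out. Without a Bcl11a library the exact permutation p was 0.0625, the smallest 5 libraries allow, so the threshold could not be passed. The same holds for the promoter against distal difference (9.68 to 15.5 points) and for the differences from shared regions near a TSS (−19 to −14.9) and away from it (−16.0 to −13.3). These 3 differences and their alternatives, all motif shares, the Bcl11a comparisons at like strength and with all merged regions, and those with KO-only and constant regions rebuilt (T1 or T2 alone, each Spi1 library left out, other peak settings) were added after seeing the data. Counting only promoter windows that lie wholly inside a region, GAGGAAGT was in 2.33% of KO-only and 16.7% of constant windows.

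Same-numbered Bcl11a T2 and T1 libraries deviated together with correlations of 0.191, 0.043 and 0.042, so the numbers were taken as names only; not every library correlated best with its own number. For Spi1, KO-iMOS and WT-iMOS libraries 1 and 2 gave 0.273 in T2 and 0.148 in T1, but with 2 numbers the other pairs take the opposite sign by construction, and replicate 1 was the longest list of each Spi1 group. With the replicate number as a block, T2 minus T1 was −7.75 (exact permutation p = 0.25), and the differences in unused lists were 26.4 for T1-chosen and 62.6 for T2-chosen regions (p = 0.5 each, exact).

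Depth is unknown, so absence of a peak does not show absence of binding, and shares of long and short lists are not on 1 scale.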
